A study of Homo sapiens with 8 samples.

Results

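The genes examined make the cell's own cholesterol and fatty acids or regulate that synthesis. They were chosen by name, as all probe sets whose annotated gene symbol is exactly 1 of 32 listed symbols, and 29 of the 32 were measured among 11963 genes in all. The 29 comprised 5 sterol regulators, 17 sterol enzymes and 7 fatty acid enzymes, read by 55 probe sets. CYP51A1, FADS1 and FDFT1 had no probe set with that symbol alone and were not analysed here. The cells were SJRH30, an established human rhabdomyosarcoma line, grown in RPMI medium with serum and kept in a chamber at 1% oxygen for 6, 12 or 24 h, or collected before hypoxia began (0 h). Each of the 4 times had 2 replicates that the labels call biological, each on 1 array, and it was not stated whether they came from separate cultures, so p-values measure only the spread between these arrays. All arrays come from 1 cell line. There was no normoxic sample at the later times among those analysed, so hours in culture and hours of hypoxia cannot be told apart. The 3 comparisons with 0 h share the same 0 h arrays.

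Cholesterol is built from acetyl-CoA through mevalonate, isoprenoids, squalene and lanosterol, and fatty acids from acetyl-CoA and malonyl-CoA. Both pathways are switched on by the sterol regulatory element binding proteins, encoded by SREBF1 and SREBF2. When sterols are plentiful, the endoplasmic reticulum proteins INSIG1 and INSIG2 hold the escort protein SCAP and its SREBP cargo in place, which keeps SREBP from reaching the nucleus. INSIG1 is itself a classic SREBP target. Several of the enzymes, among them SQLE, MSMO1, SC5D, SCD and FADS2, consume molecular oxygen.

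The deposited values were log2 probe set summaries between 2.72 and 14.5, with array medians of 6.69 to 6.73. Each gene was read from its probe set with the highest mean. Replicates of a time correlated at 0.9975 to 0.999 across genes, which are not independent replicates. The 12 h arrays had a narrower spread of values, the interquartile range being 3.83 and 3.77 log2 units there and 3.91 to 3.97 elsewhere. Control RNAs added during preparation were higher on the hypoxic arrays than at 0 h, by 0.47, 0.43 and 0.65 at 6, 12 and 24 h over 24 probe sets on the log2 scale. The hybridisation controls, over 18 probe sets, were higher too, by 0.25, 0.19 and 0.19. The part of these control differences in the results below was not tested. The treatment was visible in BNIP3, a hypoxia-induced mitophagy receptor gene, which rose by 2.96, 3.33 and 3.31 at 6, 12 and 24 h, and in PDK1, a pyruvate dehydrogenase kinase gene, which rose by 2.05, 2.32 and 2.42. The labels call the cells muscle fibroblasts. Of 15 markers of skeletal muscle and rhabdomyosarcoma, 11 lay above the median gene on all 8 arrays, among them MYOD1 (mean 11.99), whereas 6 of 8 fibroblast markers, including DCN (5.21) and FAP (4.47), lay below it on every array. The other two, COL1A1 (8.22) and COL3A1 (10.85), lay above it on all 8, and COL3A1 rose at 6 and 12 h by 0.34 and 0.22 (limma adjusted p = 0.0257 and 0.0362). Some muscle and rhabdomyosarcoma markers differed from 0 h too. Of these 15, 1 rose at 6 h, 2 rose at 12 h, and 6 rose and 2 fell at 24 h. Of all genes, 3.54%, 18.4% and 17.7% were called in either direction at these times. The 24 h rises were ALK (0.97), MYH3 (0.57), MYH8 (0.45), FOXO1 (0.34), MYCN (0.32) and MYOG (0.31, limma adjusted p = 9.24e-05, 0.0232, 0.0026, 0.0173, 0.0135 and 0.0166). MYH3 and MYH8 were dim, with means of 3.95 and 4.28. The 24 h falls were CDH15 (-0.33) and PAX3 (-0.26, adjusted p = 0.0209 and 0.0455). The list mean of the 15 was 8.60 to 8.75 on the hypoxic arrays and 8.51 to 8.55 on the 0 h arrays. All 9 epithelial, endothelial and leukocyte markers lay below the median gene on every array. Of these 9, only the epithelial marker EPCAM (mean 6.79) was called at 24 h, where it rose by 0.41 (adjusted p = 0.0151). Of all genes, 8.59% were called higher at 24 h. The epithelial markers CDH1 and KRT18 were at 0.01 and -0.28 and were not called. The part of these marker changes in the results below was not tested. All 6 adipocyte markers were below the median gene on every array, and the mean of that list was 4.76 to 4.97 on the hypoxic arrays and 4.91 to 4.92 on the 0 h arrays.

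After hypoxia the changes of the lipid synthesis genes were concentrated in a few members. The sterol regulators INSIG2, INSIG1 and SREBF1, the ketone body activating enzyme gene AACS and the fatty acid desaturase gene SCD were higher at all 3 hypoxic times, and the other enzyme genes moved little. These are bulk RNA levels, in which a changed share of cells and a changed level per cell cannot be told apart. At 6 h, 5 of 29 genes rose and 0 fell (limma, adjusted p under 0.05 over all genes), which is 17.2%, while 3.54% of all genes were called, 2.32% higher and 1.22% lower. At 12 h, 5 rose and 1 fell, or 20.7% in all, close to the 18.4% called among all genes (7.13% higher, 11.3% lower). At 24 h, 7 rose and 0 fell, or 24.1%, beside 17.7% of all genes (8.59% higher, 9.15% lower). The same 5 genes made up the rises at 6 h and at 12 h, and 2.03% of all genes were called higher at all 3 times. The median change of the 29 was 0.09, 0.06 and 0.06 on the log2 scale at 6, 12 and 24 h, and that of all genes -0.02, 0.00 and -0.01. The plot of every gene on every array shows a strongly red row for INSIG2. The rows of INSIG1, SREBF1, AACS and SCD are fainter.

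**Figure D1:**
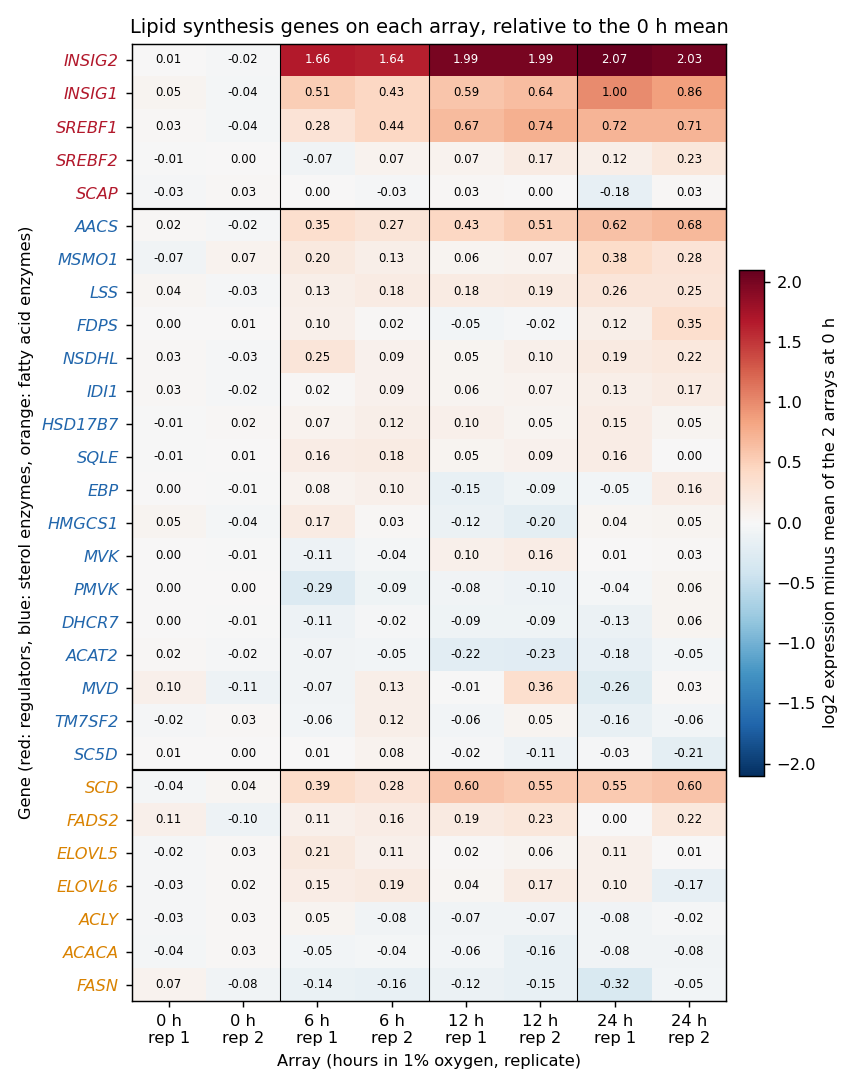
Each cell gives the log2 expression of 1 gene (rows, grouped by role and ordered by the change at 24 h) on 1 array (columns, by hours in 1% oxygen and replicate), minus the mean of the 2 arrays at 0 h. INSIG2 stands between 1.64 and 2.07 on the 6 hypoxic arrays, and INSIG1, SREBF1, AACS and SCD are above 0 h on all 6, while most other rows stay pale.

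INSIG2 showed the largest change among the 29 genes at each hypoxic time. Its log2 values were 7.98 and 7.95 at 0 h, 9.63 and 9.61 at 6 h, 9.96 and 9.96 at 12 h and 10.04 and 10.00 at 24 h. Every hypoxic array lay far above both 0 h arrays, and the replicates of each time nearly coincided. The rise was 3.15-fold at 6 h (log2 change 1.65 ± 0.05 SE, limma adjusted p = 4.37e-06), 3.98-fold at 12 h (1.99 ± 0.05, adjusted p = 1.73e-06) and 4.14-fold at 24 h (2.05 ± 0.05, adjusted p = 1.58e-06). At 6 h the log2 change had reached 80.5% of its 24 h size, and at 12 h 97.1%. The remaining step, 24 h against 6 h, was 0.39 ± 0.05 (adjusted p = 0.0135).

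INSIG1, the paralogue of INSIG2, rose in steps up to 24 h. Its values were 8.60 and 8.51 at 0 h, 9.06 and 8.98 at 6 h, 9.14 and 9.19 at 12 h and 9.55 and 9.41 at 24 h. No hypoxic array overlapped the 0 h arrays, and the 24 h arrays stood above those of every other time. The change was 0.47 ± 0.07 at 6 h, 0.61 ± 0.07 at 12 h and 0.93 ± 0.07 at 24 h, or 1.38-, 1.53- and 1.9-fold (limma adjusted p = 0.0125, 0.00164 and 0.000191). On this brightest probe set, about as much came between 6 and 24 h (0.46 ± 0.07, adjusted p = 0.0209) as before 6 h. Both further probe sets of INSIG1 moved the same way, at 0.73 and 0.62 at 24 h (adjusted p = 0.000706 and 0.00169 over all probe sets), with smaller changes than the brightest one. At 6 h they gave 0.30 and 0.20 and were not called (adjusted p = 0.072 and 0.203). For 24 h against 6 h they gave 0.44 and 0.43, both called (adjusted p = 0.0306 and 0.0359), so more of their rise came after 6 h. The mean of all INSIG1 probe sets at 6 h was 0.32 and was called (adjusted p = 0.0204 over all genes).

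SREBF1, which encodes the SREBP forms best known for driving fatty acid synthesis, had values of 7.51 and 7.44 at 0 h, 7.76 and 7.92 at 6 h, 8.15 and 8.22 at 12 h and 8.20 and 8.19 at 24 h. All hypoxic arrays exceeded both 0 h arrays, and the level at 24 h was that already seen at 12 h. The change was 0.36 ± 0.07 at 6 h, 0.71 ± 0.07 at 12 h and 0.72 ± 0.07 at 24 h, the last being 1.64-fold (limma adjusted p = 0.0348, 0.000882 and 0.000635). The only probe set of SREBF1 does not separate its isoforms here. Its paralogue SREBF2, whose product mainly drives sterol synthesis, was at 0.00, 0.12 and 0.18 (adjusted p = 0.998, 0.27 and 0.139). A second probe set of SREBF2 lay on the other side of 0, at -0.15, -0.16 and -0.20, and was not called either. SCAP, the SREBP escort, was at -0.02, 0.01 and -0.08, and its 95% interval at 24 h ran from -0.26 to 0.10.

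The 5 rising genes are those shown in the time courses with MSMO1, LSS and ACAT2.

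**Figure D2:**
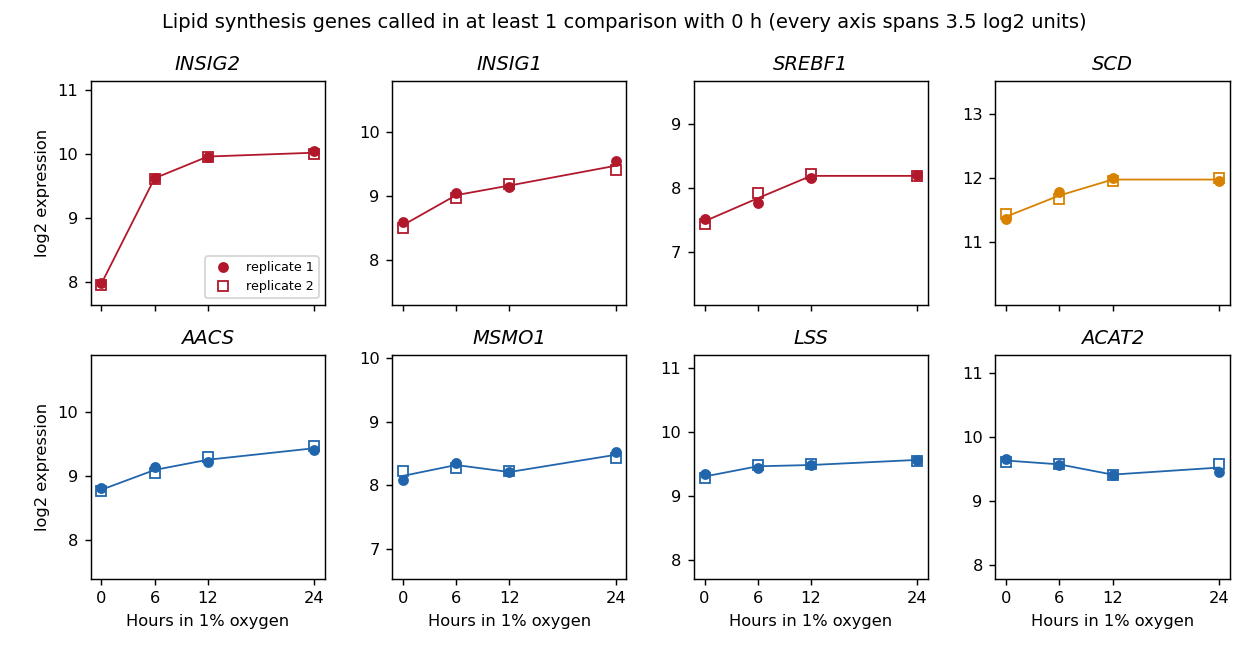
log2 expression (vertical axis) of the 8 genes called in at least 1 comparison with 0 h against hours in 1% oxygen. Circles and squares are the 2 replicate arrays, the line joins their means, and every panel spans the same number of log2 units. INSIG2 reaches 9.62 by 6 h, SREBF1 and SCD level off from 12 h, and INSIG1 and AACS are highest at 24 h.

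The promoter windows of both INSIG genes are shown with those of AACS and MSMO1, the 2 called sterol enzyme genes with the largest change at 24 h. The windows run from 250 bases before to 50 after the annotated start in RefSeq (GRCh38.p14, all on the plus strand): chr2:118088221-118088520 for INSIG2, the more upstream of its 2 listed starts, chr7:155297628-155297927 for INSIG1, chr12:125065185-125065484 for AACS and chr4:165327419-165327718 for MSMO1. Capitals mark matches on either strand to the core letters ACGTG and GCGTG of the hypoxia response element, to the E-box CACGTG, which holds ACGTG on both strands, and to TCACNCCAC, a form of the sterol regulatory element.
INSIG2: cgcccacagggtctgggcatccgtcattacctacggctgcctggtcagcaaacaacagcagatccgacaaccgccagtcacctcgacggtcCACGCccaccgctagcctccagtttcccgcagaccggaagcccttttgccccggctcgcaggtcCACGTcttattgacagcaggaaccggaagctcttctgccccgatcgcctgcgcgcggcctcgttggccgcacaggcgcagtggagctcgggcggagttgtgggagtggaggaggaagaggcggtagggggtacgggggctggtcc
INSIG1: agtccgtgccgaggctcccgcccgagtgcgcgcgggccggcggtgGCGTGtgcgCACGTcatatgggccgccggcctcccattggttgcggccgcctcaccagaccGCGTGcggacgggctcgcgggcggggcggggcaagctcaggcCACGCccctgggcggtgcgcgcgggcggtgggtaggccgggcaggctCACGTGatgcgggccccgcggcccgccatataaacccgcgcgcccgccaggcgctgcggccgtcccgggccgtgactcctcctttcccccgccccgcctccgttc
AACS: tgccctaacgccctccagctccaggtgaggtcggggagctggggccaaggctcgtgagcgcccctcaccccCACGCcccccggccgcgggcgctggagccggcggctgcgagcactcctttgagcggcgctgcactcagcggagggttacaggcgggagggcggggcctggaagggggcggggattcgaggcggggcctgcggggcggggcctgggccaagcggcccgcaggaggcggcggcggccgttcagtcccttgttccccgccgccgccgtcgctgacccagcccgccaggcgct
MSMO1: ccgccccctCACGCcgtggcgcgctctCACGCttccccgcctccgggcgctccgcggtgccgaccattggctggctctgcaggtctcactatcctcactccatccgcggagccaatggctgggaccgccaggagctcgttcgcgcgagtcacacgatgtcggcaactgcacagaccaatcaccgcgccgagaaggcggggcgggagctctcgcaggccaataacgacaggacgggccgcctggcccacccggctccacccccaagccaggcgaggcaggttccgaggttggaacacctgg
In the window shown, INSIG2 had 1 ACGTG match, whose first base lay 95 bases before the start, and 1 GCGTG match, 159 bases before it. Both were on the minus strand. The window of its other listed start also held these and a further ACGTG match on the plus strand, at base 26 counted from that start. INSIG1 had an E-box 55 bases before its start, a further ACGTG match on the minus strand 196 bases before it, and 3 GCGTG matches. AACS had 1 GCGTG match, 179 bases before the start, and MSMO1 had 2, at 241 and 223 bases before it. None of the 4 windows shown held TCACNCCAC. Of the other genes that rose at 24 h, SREBF1 had no match to any of the 4 motifs in its window, SCD had 1 GCGTG match, and LSS had an E-box and 3 GCGTG matches. Of the 29 genes, 26 had a window, 36 windows in all. ACGTG was in 30.6% of their windows and 21.4% of all 35116 windows, GCGTG in 80.6% and 36.5%, CACGTG in 16.7% and 7.26%, and TCACNCCAC in 2.78% and 1.13%. The only window with TCACNCCAC was that of SREBF2. Windows of 1 gene can overlap, base composition was not matched, and a match is a run of letters, not a bound site.

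Among the sterol enzymes, AACS alone rose at every hypoxic time. It encodes acetoacetyl-CoA synthetase, which activates the ketone body acetoacetate for lipid synthesis. Its values were 8.81 and 8.77 at 0 h, 9.14 and 9.06 at 6 h, 9.22 and 9.30 at 12 h and 9.41 and 9.47 at 24 h. The groups did not overlap, and each later time lay above the earlier one. The change was 0.31 ± 0.06, 0.47 ± 0.06 and 0.66 ± 0.06 at 6, 12 and 24 h, the last being 1.57-fold (limma adjusted p = 0.0369, 0.00269 and 0.000508), and 24 h exceeded 6 h by 0.34 ± 0.06 (adjusted p = 0.0329).

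Of the 17 sterol enzyme genes, 1 rose at 6 h, 1 rose and 1 fell at 12 h, and 3 rose at 24 h. Of all genes, 3.54%, 18.4% and 17.7% were called in either direction. The shares of sterol enzyme genes called at 12 and 24 h, 11.8% and 17.6%, did not exceed those of all genes. The 3 calls at 24 h were rises, where 8.59% of all genes were called higher and 9.15% lower. Those of MSMO1 and LSS were lost under some alternatives, so no direction of the group is shown. MSMO1, a methylsterol oxidase that uses oxygen, had 8.08 and 8.22 at 0 h, 8.35 and 8.28 at 6 h, 8.21 and 8.22 at 12 h and 8.53 and 8.43 at 24 h. Its 0 h replicates differed more than those of 12 h, whose values overlapped with them. The change at 24 h was 0.32 ± 0.07 (limma adjusted p = 0.0179), and 0.16 and 0.06 were measured at 6 and 12 h (adjusted p = 0.257 and 0.597). The call at 24 h was lost without 0 h replicate 1 (0.26, adjusted p = 0.125) or 24 h replicate 1 (0.27, adjusted p = 0.0759).

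LSS, which closes the ring of lanosterol, had 9.34 and 9.27 at 0 h, 9.43 and 9.48 at 6 h, 9.48 and 9.49 at 12 h and 9.56 and 9.55 at 24 h. All 6 hypoxic arrays were above both 0 h arrays. The change at 24 h was 0.25 ± 0.05 (limma adjusted p = 0.018), with 0.15 and 0.18 at 6 and 12 h (adjusted p = 0.176 and 0.0558). The 12 h change was called under 5 of 16 alternatives, among them further quantile normalization and centring each array on its median. Both dimmer probe sets of LSS were near 0 at 24 h (-0.04 and 0.07), the mean of its 3 probe sets was not called (0.09, adjusted p = 0.31), and neither was its brightest one without 0 h replicate 1 (adjusted p = 0.0698), 0 h replicate 2 (0.134) or 24 h replicate 1 (0.0514).

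ACAT2, the cytosolic thiolase that opens the mevalonate pathway, was the only gene of the 29 called lower. It had 9.65 and 9.61 at 0 h, 9.56 and 9.58 at 6 h, 9.41 and 9.40 at 12 h and 9.45 and 9.58 at 24 h. All hypoxic arrays were below the 0 h arrays, most clearly at 12 h. The fall at 12 h was -0.22 ± 0.06 (limma adjusted p = 0.0466), and -0.06 and -0.11 were measured at 6 and 24 h (adjusted p = 0.675 and 0.275). With further quantile normalization, which evens out the narrower 12 h arrays, the 12 h value was -0.18 (adjusted p = 0.1), and with arrays centred on their medians -0.19 (adjusted p = 0.0717). Leaving out any array of 0, 6 or 12 h also ended the call (adjusted p = 0.0783 to 0.209).

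The remaining 13 sterol enzyme genes were called at no time from their brightest probe set. From the mevalonate steps, HMGCS1, the synthase that condenses acetoacetyl-CoA, was at 0.10, -0.17 and 0.04 at 6, 12 and 24 h. The kinase genes MVK and PMVK were at 0.02 and 0.01 at 24 h, and the decarboxylase gene MVD was at -0.11 with the widest interval (-0.46 to 0.24). Of the isoprenoid genes, the isomerase gene IDI1 was at 0.15 (limma adjusted p = 0.116) and the farnesyl diphosphate synthase gene FDPS at 0.23 (adjusted p = 0.0858). FDPS had 9.81 and 10.04 at 24 h and 9.69 and 9.70 at 0 h, and it was called without 24 h replicate 1 (0.35, adjusted p = 0.0217). In the later steps, SQLE, the oxygen-using squalene epoxidase, was at 0.17, 0.07 and 0.08 at 6, 12 and 24 h. At 24 h the sterol dehydrogenase gene NSDHL was at 0.20 (adjusted p = 0.0781), and the ketosteroid reductase gene HSD17B7 at 0.09. The isomerase gene EBP was at 0.06, but the mean of its 3 probe sets was called higher (0.24, adjusted p = 0.0492). At 24 h the reductase genes DHCR7 and TM7SF2 were at -0.03 and -0.11, and the desaturase gene SC5D at -0.12. For IDI1 and HSD17B7 the probe sets are of the kind whose name marks probes shared with other sequences, so related transcripts may add to them.

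Across the 3 roles, 22 genes were not called at 24 h, and their changes ran from -0.18 to 0.23. The 95% interval of each of these 22 lay within 0.5 of 0 on the log2 scale, the extremes being -0.46 and 0.42, that is a 1.38-fold fall and a 1.34-fold rise. At 12 h this held for 22 of 23, the exception being MVD, whose upper bound was 0.52. The arrays of 24 h lay wholly above those of 0 h in 13 of the 29 genes and wholly below in 4, where 26.6% and 32.3% of all genes did so. At 12 h these counts were 14 above and 10 below, beside 29.6% and 34.2% of all genes. The plot of changes with their intervals shows the enzyme genes gathered about 0 under the regulators at each time.

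**Figure D3:**
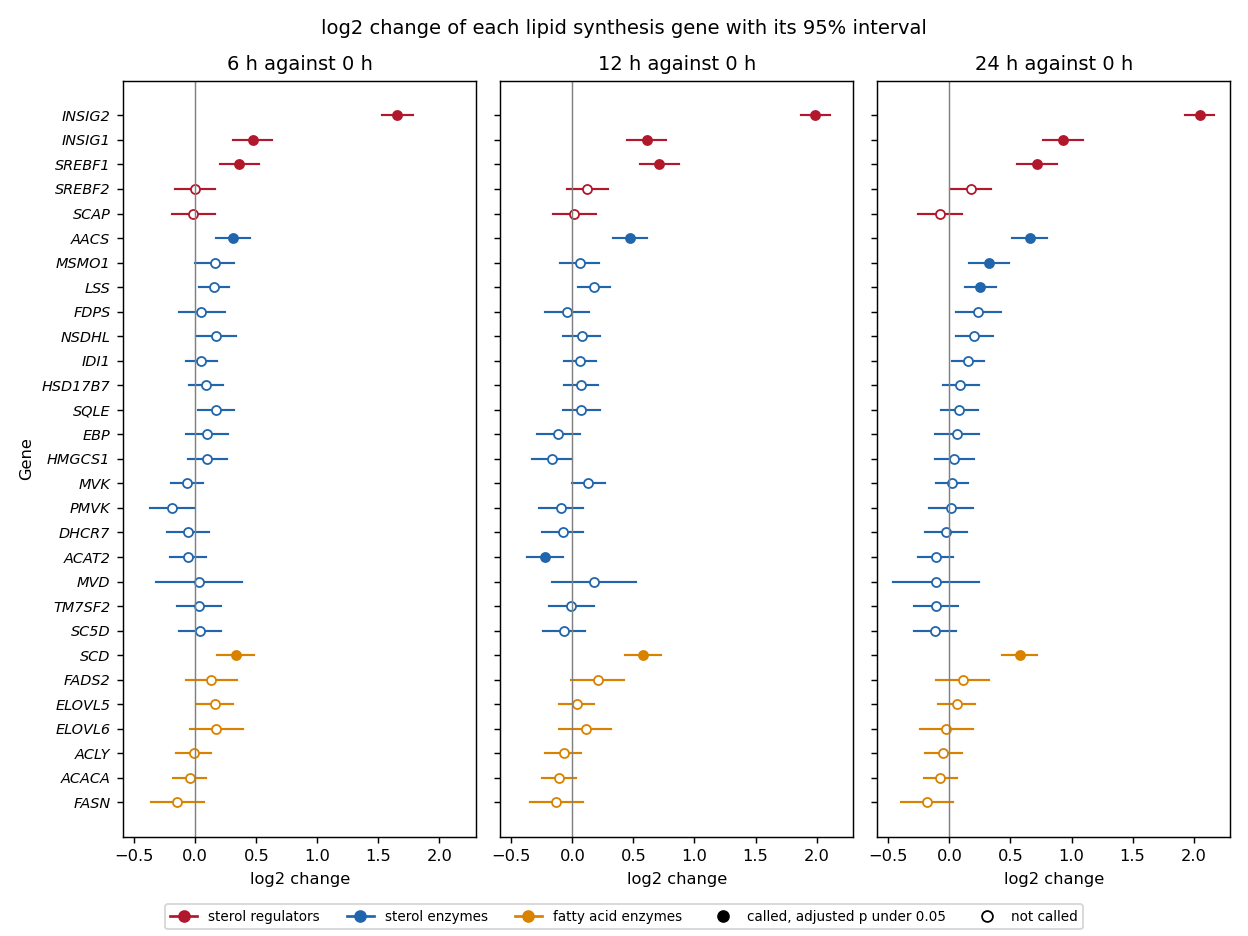
log2 change against 0 h (horizontal axis) of each gene (rows) at 6, 12 and 24 h, with its 95% interval from the fit as a line. Filled points are called at an adjusted p under 0.05 and open points are not. INSIG2 lies alone near 2 at 12 and 24 h, and the intervals of the uncalled genes at 24 h stay between -0.46 and 0.42.

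Of the 7 fatty acid enzyme genes, SCD alone was called, and it rose at every hypoxic time. It encodes stearoyl-CoA desaturase, which uses oxygen to place the double bond of oleate. Its values were 11.35 and 11.43 at 0 h, 11.78 and 11.67 at 6 h, 11.99 and 11.94 at 12 h and 11.94 and 11.99 at 24 h. The hypoxic arrays all exceeded the 0 h arrays, and 12 and 24 h did not separate. The change was 0.33 ± 0.06, 0.58 ± 0.06 and 0.58 ± 0.06 at 6, 12 and 24 h, or 1.26-, 1.49- and 1.49-fold (limma adjusted p = 0.0348, 0.00145 and 0.00115). SCD is read by 4 probe sets, and the 3 dimmer ones gave 0.36, 0.29 and 0.26 at 12 h, all called over all probe sets (adjusted p = 0.0197, 0.0461 and 0.0223). At 24 h they gave 0.37, 0.10 and 0.25, of which 0.10 was not called (adjusted p = 0.455). At 6 h they gave 0.04, 0.12 and 0.32, of which 0.32 alone was called (adjusted p = 0.0299). The probe set with 0.32, the dimmest, is of the kind whose name marks probes shared with other sequences. The mean of the 4 probe sets at 6 h was 0.21 and was not called (adjusted p = 0.0987 over all genes).

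The enzymes that supply and build the chain did not pass. ACLY, which makes cytosolic acetyl-CoA from citrate, was at -0.01, -0.07 and -0.05 at 6, 12 and 24 h. ACACA, the acetyl-CoA carboxylase gene, was at -0.04, -0.11 and -0.08, and FASN, the fatty acid synthase gene, at -0.15, -0.13 and -0.18. For FASN the 24 h arrays gave 9.19 and 9.46, against 9.58 and 9.43 at 0 h, so the groups overlapped. Without 24 h replicate 2 FASN was called lower (-0.32, adjusted p = 0.0442). The elongase genes ELOVL5 and ELOVL6 were at 0.06 and -0.03 at 24 h. FADS2, the desaturase of polyunsaturated fatty acids, was at 0.13, 0.21 and 0.11, and its probe set was among the dimmer 50% of genes, as were those of PMVK, MVD and TM7SF2. Of the 5 measured oxygen-using enzymes, 1 was called higher at 6 h, 1 at 12 h and 2 at 24 h, with median changes of 0.16, 0.07 and 0.11. The 19 measured enzymes that use no oxygen had 1, 1 and 2 called higher and medians of 0.05, -0.01 and 0.02. Of all genes, 2.32%, 7.13% and 8.59% were called higher. The difference between these 2 groups was not tested.

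Comparing 24 h with 6 h within hypoxia, 4 of the 29 genes rose and 0 fell, or 13.8%, beside 2.78% of all genes (1.85% higher, 0.936% lower). They were INSIG1 (0.46), INSIG2 (0.39), SREBF1 (0.35 ± 0.07, limma adjusted p = 0.0441) and AACS (0.34), and SCD was at 0.24 (adjusted p = 0.0954). The sterol enzyme genes MSMO1 and LSS were at 0.16 and 0.10 (adjusted p = 0.26 and 0.37), so their rise after 6 h was not shown. Without any 1 array of 6 or 24 h none of the 4 was called, and without either 0 h array only INSIG1 and INSIG2 were. The rises at 6 h rested on few arrays too. Without any 1 of the 0 or 6 h arrays INSIG2 alone was called at 6 h, SREBF1 was also lost without either 24 h array, and with the replicate number as a block INSIG1 and INSIG2. The rises of INSIG2, INSIG1, SREBF1, AACS and SCD at 12 and 24 h were called under all 16 alternatives tried.

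Probe sets of 1 gene did not always move alike. Of the 17 genes with several probe sets, 8 had changes of both signs at 24 h. Of the 26 further probe sets, 6 were called higher at 24 h and 0 lower, 2 each for INSIG1 and SCD and 1 each for DHCR7 and EBP, where 14.7% of all probe sets were called in either direction. At 6 h 1 of the 26 was called, beside 2.7% of all probe sets, and for 24 h against 6 h 2 were higher and 1 lower, beside 1.48%. For DHCR7 the dimmer probe set gave 0.28 (limma adjusted p = 0.0206 over all probe sets) and the brighter -0.03, and for EBP the dimmest gave 0.43 (adjusted p = 0.016) and the brightest 0.06. A second probe set of HMGCS1 changed by -0.36 at 24 h against 6 h (adjusted p = 0.0386), and the brighter one was at -0.05. The probe set plot shows this spread beside the agreement within INSIG1.

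**Figure D4:**
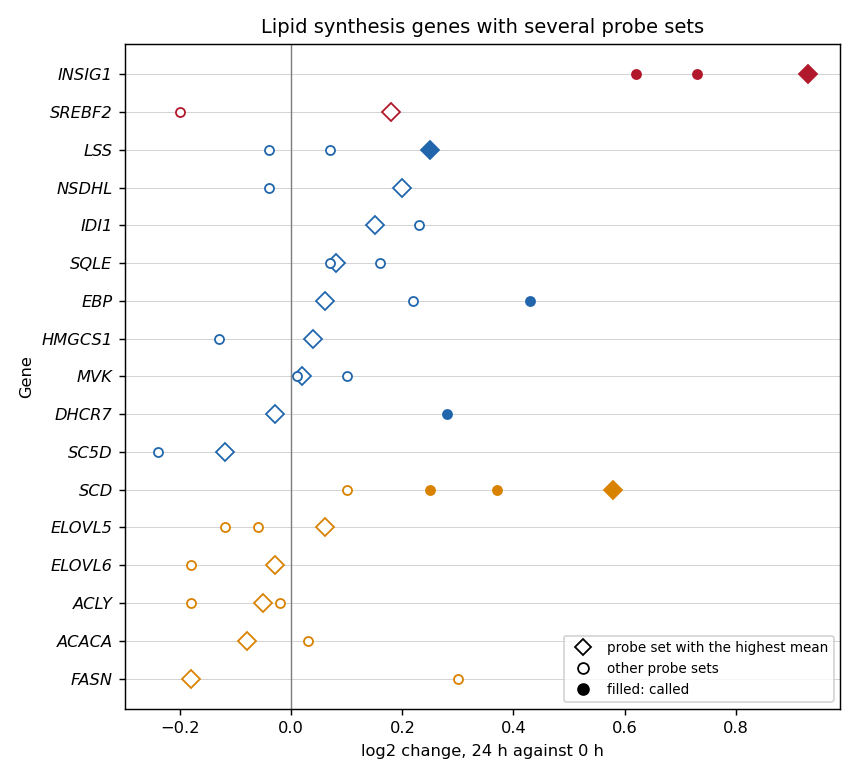
log2 change at 24 h against 0 h (horizontal axis) of every probe set of the 17 genes with several. Diamonds are the probe sets with the highest mean, circles the others, and filled symbols are called at an adjusted p under 0.05 over all probe sets. All 3 of INSIG1 lie between 0.62 and 0.93 and are filled, while FASN and SREBF2 have 1 open symbol on each side of 0. The FASN symbol above 0 (0.30) is of a probe set whose name marks probes shared with other sequences.

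Neighbouring genes of the same pathways were read from 3 further lists. Of 10 measured genes of other sterol and isoprenoid steps, 0 were called at 6 h, 4 fell at 12 h and 2 fell at 24 h, with medians of 0.03, -0.11 and -0.03. Of all genes, 1.22%, 11.3% and 9.15% were called lower at these times. PDSS1, which makes the side chain of coenzyme Q, was at -0.28 at 12 h and -0.32 at 24 h (limma adjusted p = 0.033 and 0.0212), and DHDDS, which makes dolichol, was at -0.22 at 24 h (adjusted p = 0.0292). The other 12 h falls, named after their values were seen, were COQ2 (-0.27), PGGT1B (-0.28) and ERG28 (-0.22), with adjusted p of 0.0293, 0.0292 and 0.0323. COQ2 acts in coenzyme Q synthesis and PGGT1B in protein prenylation.

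Of 18 measured genes of SREBP processing and sterol handling, 0 were called at 6 h, 1 rose and 3 fell at 12 h, and 2 rose and 3 fell at 24 h, with medians of -0.03, -0.08 and 0.01. These counts stand beside 3.54%, 18.4% and 17.7% of all genes called in either direction. At 24 h SAR1B, a GTPase of the vesicles that leave the endoplasmic reticulum, was at -0.43 (limma adjusted p = 0.00261) and SOAT1, which esterifies cholesterol, at -0.41 (adjusted p = 0.0217). MYLIP, a sterol-induced ubiquitin ligase gene, was at 0.30 (adjusted p = 0.0269) and NPC2, a lysosomal cholesterol carrier, at 0.29 (adjusted p = 0.0127). Named after their values were seen, NFYA, a subunit gene of a factor that acts with SREBP, was at -0.25 at 24 h (adjusted p = 0.0314), and at 12 h its partner NFYC was at -0.36 (adjusted p = 0.0173) and the cholesterol exporter gene ABCA1 at 0.37 (adjusted p = 0.0288). At 24 h NFYC and ABCA1 were at -0.10 and 0.04 and were not called. ABCA1 was dim, with a mean of 4.77, and the name of the NFYC probe set marks probes shared with other sequences. SAR1B and SOAT1 had already fallen at 12 h, both at -0.33. The SREBP protease genes MBTPS1 and MBTPS2 were at 0.04 and -0.24 and were not called.

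Of 19 measured genes of fatty acid synthesis and activation, 1 rose at 6 h, 3 rose and 2 fell at 12 h, and 3 rose and 3 fell at 24 h, with medians of 0.03, 0.01 and 0.06. The shares of all genes called in either direction were again 3.54%, 18.4% and 17.7%. OXSM, a mitochondrial fatty acid synthase component gene, rose at all 3 hypoxic times by 0.43, 0.48 and 0.53 (limma adjusted p = 0.00557, 0.00153 and 0.000746). At 24 h the elongase gene ELOVL2 was at 0.61 (adjusted p = 0.00228), the mitochondrial citrate carrier gene SLC25A1 at 0.42 (adjusted p = 0.0206) and ACSL4, an acyl-CoA synthetase gene with a mean of 4.31, at -0.61 (adjusted p = 0.0363). The other 24 h falls, named after their values were seen, were ELOVL4 (-0.42, adjusted p = 0.0195) and FADS3 (-0.41, adjusted p = 0.0121).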

How the data were processed

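The authors deposited 1 table of log2 probe set values for 8 arrays. The submitters' processing notes name RMA, with no version given. RMA in its usual form makes arrays equal in distribution, so a change is relative to the other transcripts on an array. The labels' protocols state 10 µg of RNA and a single round of biotin amplification. Of 22277 probe sets, 19070 had 1 gene symbol in the 2016 platform annotation, 1043 had several and 2164 were not listed, and 62 controls were left out of the tests. Each of 11963 genes was represented by its brightest probe set on average, with no filter, and symbols were brought up to date through Entrez identifiers in RefSeq.

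In limma 3.58.1 (R 4.3.3), lmFit and eBayes gave a mean for each of the 4 times from all 8 arrays, with 4 residual and 3.68 prior degrees of freedom. This step was also run on simulated data in which fewer genes changed at 24 h than were called here, and no result above rests on that run. Genes were called, and are said to have risen or fallen, at a two-sided Benjamini-Hochberg adjusted p under 0.05 over all genes of a comparison. Probe sets were fitted and adjusted in the same way over all probe sets. Intervals are 95% intervals of the fit. Precision is limited by 2 arrays per time. The genes and lists were chosen with earlier results of these data known, so no list was tested and the counts are descriptions. The text names all 29 genes by role, with values on each array where called. Of each further lipid gene list it names up to 4 called genes by the size of the change at 24 h. Exceptions are those said to be named later and the uncalled MBTPS1 and MBTPS2. Cell type markers were named outside this rule. Alternatives were a variance trend, 2 further normalizations, 2 filters on dim genes, fits of the times compared, a replicate block, the mean of a gene's probe sets, and leaving out each array.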

Additional observations from a re-analysis of the deposited data

How the results depend on the processing

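With 4 degrees of freedom and 2 arrays a time, counts near the threshold moved. All log2 changes of INSIG2, INSIG1, SREBF1, AACS and SCD kept their sign in every alternative. For the lipid synthesis genes at 6 h, 5 were higher; the replicate block gave 2 and leaving out 1 array gave 1 to 5. At 12 h 1 was lower; further quantile normalization, median centring and the replicate block gave 0, dropping the dimmer 50% of genes gave 2 (with HMGCS1 at -0.17), and leaving out 1 array gave 0 to 1. At 24 h 7 were higher; dropping the dimmer 50% gave 11, adding FDPS, NSDHL, IDI1 and SREBF2, and leaving out 1 array gave 5 to 7 higher and 0 to 1 lower. For 24 h against 6 h 4 were higher; a fit of only those times and the replicate block gave 2 each, and leaving out 1 array gave 0 to 4. The median change of the 29 genes, 0.09 at 6 h, was 0.07 with the mean of all probe sets and 0.05 to 0.11 without 1 array. At 12 h it was 0.06, with 0.10 after quantile normalization, 0.09 after centring and 0.04 to 0.06 without 1 array. At 24 h it was 0.06 (0.06 to 0.10 without 1 array), and for 24 h against 6 h 0.01, with 0.04 from the mean of all probe sets and -0.01 to 0.09 without 1 array.

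Over all genes, the 423 calls at 6 h became 1206 with an intensity trend, 776 and 1323 without the dimmest 25% or dimmer 50%, 272 with the block and 90 to 508 without 1 array. The 2202 calls at 12 h became 655 to 2507 and the 2123 at 24 h 791 to 2169 without 1 array. The 333 calls of 24 h against 6 h became 1039 with a trend, 623 and 1037 with the filters, 184 in a fit of only those times, 157 with the block and 18 to 359 without 1 array. The filters test fewer genes; the other causes were not tested. Arrays with the same replicate number did not deviate together (correlations of -0.11 to 0.09 between times). This cannot show whether the numbers pair the samples, because the noise of single arrays can mask a shared part. A lone array left at a time was assumed to vary like the other groups.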
